A study of Mus musculus with 8 samples.

Results

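The transcripts described here are those of the Myc, Max and Mxd network, a family of basic helix-loop-helix leucine zipper transcription factors. The 9 genes were the rows of the deposited expression tables named Myc, Mycn, Mycl1, Max, Mxd1, Mxd3, Mxi1, Mnt and Mga, out of 22878 rows in all. Each of them had 1 row with an accepted estimate in all 8 libraries, and all 9 were among the 13693 genes tested.

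Max is the shared partner of the network. Myc proteins bind DNA as pairs with Max and activate genes of growth, ribosome production and metabolism, while Mxd proteins and Mnt pair with the same Max and recruit Sin3 and histone deacetylases to the same DNA element, the E-box. Mga, a T-box protein with a second DNA-binding domain of the Myc kind, joins Max in PRC1.6, a Polycomb complex that keeps germ cell genes silent in embryonic stem cells. In pluripotent cells Myc and Mycn support self-renewal, and c-Myc is one of the classical reprogramming factors.

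RNA-seq was carried out on the mouse embryonic stem cell (ESC) line R1 and on 4 secondary induced pluripotent stem cell (iPSC) lines, all labelled with embryo as the tissue. The iPSC lines were made from adult all-iPSC mice: 16-6 from hematopoietic progenitors of the bone marrow, 32 from adipocyte progenitors of fat, S8 from epidermal cells and T2 from stomach lining cells. Those mice came from an iPSC line with doxycycline-inducible Oct4, Sox2, c-Myc and Klf4, so that every iPSC line carries the c-Myc transgene and R1 does not. Doxycycline was withdrawn before colonies were picked, and the reads of a transgene and of the endogenous gene cannot be told apart in a gene-level value. All lines, R1 included, were cultured in serum and LIF on mitomycin-treated fibroblast feeders. There were 2 libraries for each of R1, 16-6 and 32 but a single one for S8 and for T2, whose own spread is therefore unknown. Each iPSC line grew from picked colonies and stands for its tissue of origin as 1 line only, so the line and the tissue of origin cannot be told apart.

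Levels are given as FPKM (fragments per kilobase of transcript and per 1000000 mapped fragments, which allows genes of unequal length to be compared), after division of every deposited value by 1 common constant. The fragments implied by the confidence limits of the files came to 15.5 to 16.7 per library in units of 1000000. For S8 and T2 the study lists more sequenced reads, and a smaller share of them uniquely mapped, than for the other libraries. Its part in the members' values was not tested. All 10 pluripotency markers examined, Pou5f1 and Nanog among them, were at 1 FPKM or more in every library. All 10 were lower in both libraries of 16-6 than in R1, with sums of 2714 and 2775 FPKM in 16-6, 4249 and 4621 in R1, 5267 and 4469 in 32, 5485 in S8 and 3632 in T2. The markers of the parental tissues summed to between 1.04 and 12.6 FPKM over 10 genes. Fibroblast transcripts, by contrast, were in every library and differed between lines: the 10 markers, collagens and decorin among them, summed to 845 and 878 FPKM in R1, 1577 and 1560 in 16-6, 63.1 and 62.2 in 32, 376 in S8 and 545 in T2, and none of the 10 was at 0 in any library. In line 32, 6 and 7 of the 10 reached 1 FPKM.

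A difference was called when limma, fitted over all tested genes and all 8 libraries, gave a Benjamini-Hochberg adjusted p below 0.05 and when it reached 2-fold, both on the log2(FPKM + 1) scale, which understates changes of low genes. For S8 and T2 this test takes the spread between replicates from the other lines.

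The E-box itself is found near the start of several genes of the network. In RefSeq promoters of GRCm38.p6, which run from 250 bases before to 50 bases after an annotated start, the motif CACGTG (its own reverse complement, so 1 search covers both strands) was present in 7.15% of 32851 windows. Among the 9489 tested genes with such a window, 11.99% had it in at least 1. Of the 8 members matched by symbol, all but Myc, the windows of Max and Mnt held it, as did those of 3 of the 4 other genes of the extended network, Mxd4, Mlx and Mlxipl. The windows of Mycn, Mycl1, Mxd1, Mxd3, Mxi1 and Mga did not hold these letters. In the lists described below, 6 of 12 germ cell genes and 8 of 27 activated targets with a window held it. In the other lists searched, 1 of 8 PRC1.6 subunits, 1 of 8 Myc cofactors, 0 of 6 corepressors and 0 of 5 repressed targets did. The motifs in the network genes are printed first and then, as examples, those of the germ cell genes Sycp3 and Slc25a31 and of the activated target Cdk4, which were chosen after their values were seen. Capitals mark the E-box, and every sequence is on the strand of its gene.
Max: tgagcccggtCACGTGttagggggcc
Mnt: ccacccaagcCACGTGtgcgcgcgcg
Mxd4: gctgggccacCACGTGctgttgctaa
Mlx: tgggttggatCACGTGactgagcctc
Mlxipl: ggctgccatcCACGTGctaaggagag
Sycp3: cgttggctccCACGTGagaacgggca
Slc25a31: caactggaaaCACGTGttatggtcac
Cdk4: gggtgaagatCACGTGtccagaacgt
The windows lie at chr12:76962236-76962261 on the minus strand for Max, chr11:74830791-74830816 on the plus strand for Mnt, and chr5:34187914-34187939 on the minus strand for Mxd4. Those of Mlx (chr11:101087240-101087265), Mlxipl (chr5:135089782-135089807), Sycp3 (chr10:88459513-88459538), Slc25a31 (chr3:40708768-40708793) and Cdk4 (chr10:127063514-127063539) are on the plus strand. The E-box of Max was at position -3 relative to the annotated start, and that of Mxd4 at -219. Cdk4 has 4 E-boxes in its window (-172, -118, -98 and -11), of which the last is printed, and Sycp3 has 2 (-64 and -43), of which the first is printed. A match is a description of the letters in this window and not evidence of binding.

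Of the 3 Myc family genes, Myc hardly differed between the ESC line and the iPSC lines. Myc (chr15:61816896-61821916 in mm9, the build of the files) was at 28.5 and 28.9 FPKM in R1, 31.1 and 30.2 in 16-6, 27.9 and 27.5 in 32, 30.9 in S8 and 31.1 in T2. The highest library was 1.13 times the lowest. The line means spanned 0.16 on the log2 scale, a width below which only 0.365% of the tested genes fell. Against R1 the log2 difference was 0.09 in 16-6 (adjusted p = 0.0941), -0.05 in 32 (adjusted p = 0.293), 0.10 in S8 (adjusted p = 0.103) and 0.11 in T2 (adjusted p = 0.0883), all by limma. With 95% intervals that reached at most 0.23, in T2, a change of Myc as large as 2-fold was outside the interval in every line. Neighbours in the order of the lines (T2, S8, 16-6, R1, 32) did not differ by more than the spread, although 16-6, S8 and T2 were each above 32 at the adjusted p alone (0.0245, 0.0363 and 0.0343). The iPSC lines carry the c-Myc transgene, and no difference in total Myc reads was called in any of them.

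Mycn (chr12:12942899-12948642), the Myc family gene with the highest level in every library, separated the lines into 2 ranges. It was at 213.7 and 229.7 FPKM in R1, 257 in S8 and 200.2 in T2, but at 127 and 126 in 16-6 and 135 and 143 in 32. No library of 16-6 or 32 came near those of the other 3 lines, a division made after the values were seen. How many of all tested genes divide the lines in this way was not counted. The range of line means of Mycn was wider than that of 64.7% of tested genes. Against R1 the log2 difference was -0.80 in 16-6 (SE 0.053, adjusted p = 0.000391) and -0.67 in 32 (SE 0.053, adjusted p = 0.000498), both past the adjusted p and short of 2-fold. T2 was at -0.15 (adjusted p = 0.113). S8 was at 0.21 (adjusted p = 0.0346), a difference whose direction turned with quantile normalization (-0.13) and with a correction for transcript length and GC content (-0.01). Between iPSC lines, Mycn was called higher in S8 than in 16-6 (log2 difference 1.02, adjusted p = 0.000218), a contrast in which 17.3% of tested genes were called. The difference was 0.90 with median of ratios scaling, 0.74 with quantile normalization and 0.74 with the length and GC correction, each of which ended the call. In the order S8, R1, T2, 32, 16-6, the neighbours R1 and T2 did not pass the adjusted p, nor did 32 and 16-6 (adjusted p = 0.0817).

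**Figure D1:**
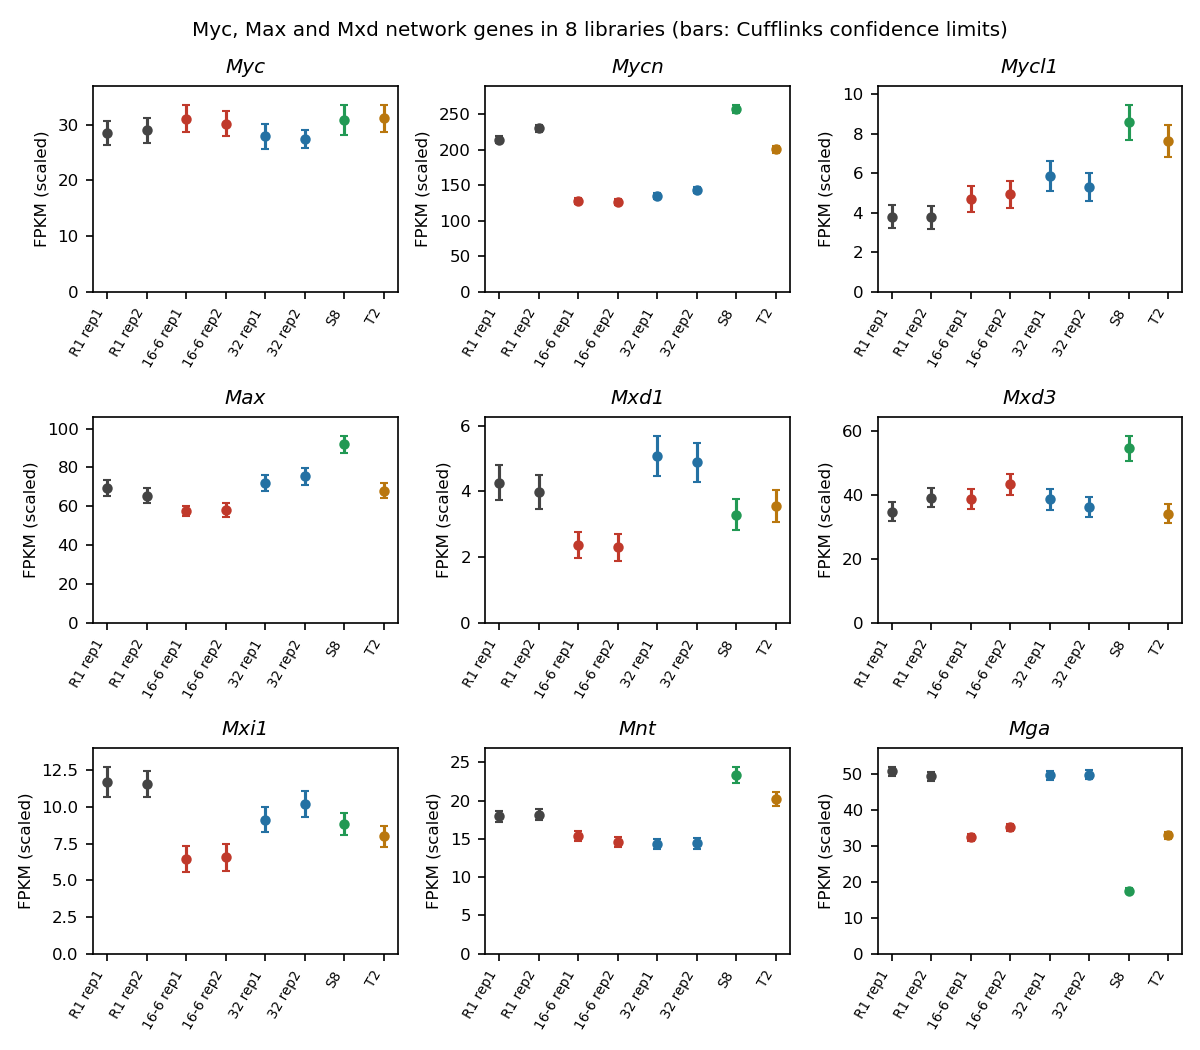
FPKM of the 9 network genes (y axis, scaled, from 0) in each of the 8 libraries (x axis); points are the deposited estimates and bars their Cufflinks confidence limits. Myc stays between 27.5 and 31.1 in all libraries, Mycn is lowest in the 4 libraries of 16-6 and 32, and Mga is lowest in S8.

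Mycl1 (chr4:122673342-122679723), the L-Myc gene, was the lowest of the family and the only one above both R1 libraries in all 6 iPSC libraries. R1 had 3.81 and 3.77 FPKM, 16-6 4.69 and 4.94, 32 5.85 and 5.29, S8 8.59 and T2 7.64. The groups did not overlap, and S8 and T2 were the highest. How many of all tested genes separate the R1 and iPSC libraries in this way was not counted. The log2 difference from R1 was 1.00 in S8 (SE 0.082, adjusted p = 0.000425), the one call, at the edge of the 2-fold limit. It was 0.85 in T2 (adjusted p = 0.00111), 0.45 in 32 (adjusted p = 0.00331) and 0.28 in 16-6 (adjusted p = 0.0187). S8 and T2 did not differ beyond the spread (adjusted p = 0.268), nor did 32 and 16-6 (adjusted p = 0.0718). The call in S8 was lost with median of ratios scaling, where the difference was 0.95.

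Summed per library, the 3 Myc family genes gave 245.9 and 262.4 FPKM in R1, 162.8 and 161.1 in 16-6, 168.4 and 176.1 in 32, 296.6 in S8 and 238.9 in T2. Mycn made up 86.9% and 87.5% of the sum in R1 and 78.0% and 78.2% in 16-6, its lowest share. The ratio of Mycn to Myc was 7.51 and 7.93 in R1, 4.09 and 4.17 in 16-6, 4.82 and 5.22 in 32, 8.33 in S8 and 6.43 in T2. These sums follow Mycn, as the near-constant height of Myc in the stacked plot of the family shows.

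**Figure D2:**
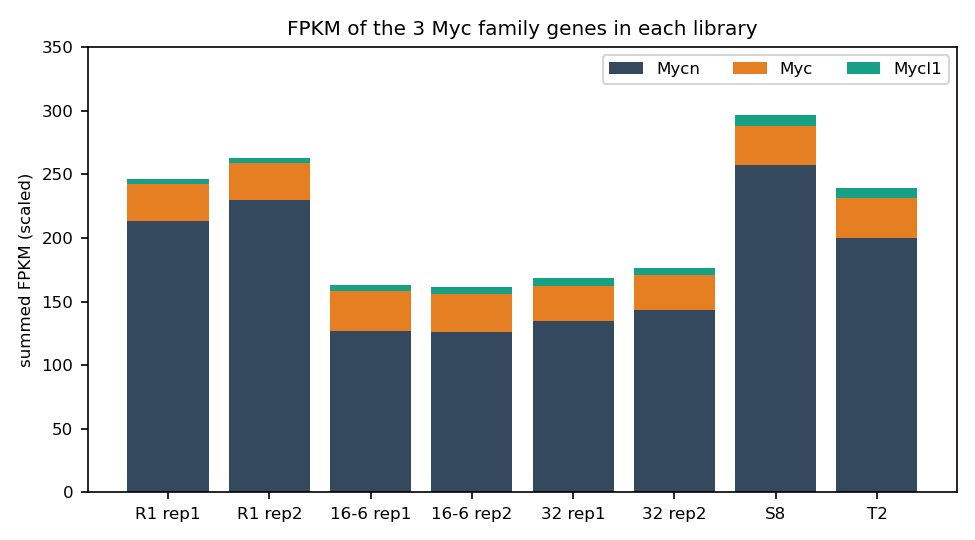
Summed FPKM of Mycn, Myc and Mycl1 (y axis, scaled, stacked from 0) in each of the 8 libraries (x axis). The sum is between 161.1 and 176.1 in the libraries of 16-6 and 32 and between 238.9 and 296.6 in those of R1, S8 and T2.

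Max (chr12:78038256-78063235), the common partner, was within 2-fold of its R1 level in every library. It was at 69.3 and 65.4 FPKM in R1, 57.6 and 58.1 in 16-6, 72.0 and 75.4 in 32, 92.0 in S8 and 68.1 in T2. S8 stood above every other library and 16-6 below. The log2 difference from R1 was 0.44 in S8 (adjusted p = 0.00154) and -0.21 in 16-6 (adjusted p = 0.0124), without reaching 2-fold. In 32 it was 0.13 (adjusted p = 0.0568) and in T2 0.02 (adjusted p = 0.817). Among the 500 tested genes nearest to Max in length, the median in S8 was 0.19, and Max lay at the percentile 65.2. With the length and GC correction, Max in S8 was above 32 by 0.10 and above 16-6 by 0.42. The FPKM of the Myc family was 3.55 and 4.01 times that of Max in R1 and 2.34 times in both libraries of 32, where Mycn was low and Max was not.

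The 4 Mxd and Mnt repressor genes among the 9 members did not move as a block. Mxi1 (chr19:53384996-53450300), which encodes the Mxd2 protein, was below both R1 libraries in all 6 iPSC libraries, with 11.7 and 11.5 FPKM in R1, 6.46 and 6.58 in 16-6, 9.14 and 10.2 in 32, 8.87 in S8 and 8.004 in T2. The log2 difference was -0.75 in 16-6 (SE 0.065, adjusted p = 0.000803), -0.49 in T2 (adjusted p = 0.00545), -0.36 in S8 (adjusted p = 0.0123) and -0.24 in 32 (adjusted p = 0.0248). All 4 passed the adjusted p and none reached 2-fold, and in S8 the difference was 0.08 after the correction for length and GC content. How many of all tested genes were below both R1 libraries in all 6 iPSC libraries was not counted. Between 32, S8 and T2, neighbours in the order did not differ beyond the spread (adjusted p = 0.275 for S8 against 32 and 0.314 for T2 against S8).

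Mxd1 (chr6:86597039-86619153), a repressor known to accumulate when cells leave the cycle and differentiate, was the lowest of these 4 repressors in each library. It was at 4.27 and 3.98 FPKM in R1, 2.37 and 2.29 in 16-6, 5.08 and 4.88 in 32, 3.28 in S8 and 3.54 in T2. Line 16-6 was the lowest and line 32 the highest, with a log2 difference of 0.85 between them (adjusted p = 0.000356). Against R1 it was -0.62 in 16-6 (adjusted p = 0.00128), 0.22 in 32 (adjusted p = 0.03), -0.26 in S8 (adjusted p = 0.0335) and -0.17 in T2 (adjusted p = 0.115). With quantile normalization the S8 value came to 0.0061.

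Mxd3 (chr13:55426529-55431091), the Mxd gene tied to proliferating cells, had the highest level of the 4 repressors. It was at 34.6 and 39.1 FPKM in R1, 38.5 and 43.2 in 16-6, 38.5 and 36.2 in 32, 54.5 in S8 and 33.95 in T2. The replicates of R1 and 16-6 overlapped, and only S8 stood apart, with a log2 difference of 0.56 (SE 0.10, adjusted p = 0.00673) that fell to 0.04 after the length and GC correction. The end of the gene shares 104 annotated bases with Prelid1 on the other strand. Mxi1, Mlx and Mlxip likewise share 201, 385 and 3139 bases with genes on the other strand. Whether the counting used strand is not stated in the sources used here.

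Mnt (chr11:74644426-74659227), a repressor expressed in cycling and resting cells alike, was at 17.9 and 18.2 FPKM in R1, 15.4 and 14.6 in 16-6, 14.3 and 14.4 in 32, 23.4 in S8 and 20.2 in T2. It was lower in 16-6 and 32, as was Mycn, and higher in S8. The log2 difference was -0.25 in 16-6 (adjusted p = 0.00689), -0.31 in 32 (adjusted p = 0.00295), 0.36 in S8 (adjusted p = 0.00308) and 0.16 in T2 (adjusted p = 0.0584). Across the 8 libraries Mnt and Mycn had a Pearson r of 0.91 on the log2 scale, given as a description, since libraries of a line are not independent of each other.

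Set against the sum of Mxd1, Mxd3, Mxi1 and Mnt, the sum of the Myc family was 3.59 and 3.61 times as high in R1, 2.60 and 2.42 times in 16-6, 2.51 and 2.68 times in 32, 3.30 times in S8 and 3.64 times in T2. The 4 libraries of 16-6 and 32 were thus below the other 4 in this ratio of activator to repressor transcripts. The repressor Mxd4, described below, is not part of it. Transcript levels do not give the amounts of protein, and Myc proteins turn over rapidly.

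Mga (chr2:119722964-119795317 in mm9, with up to 25 exons and a longest coding transcript of 13931 bases) had the widest range of line means of the 9 members, before any correction for length. It was at 50.7 and 49.3 FPKM in R1, 32.3 and 35.1 in 16-6, 49.6 and 49.7 in 32, 17.5 in S8 and 32.9 in T2. Line 32 overlapped R1, 16-6 and T2 had about the same lower level, and S8 was the lowest. The log2 difference from R1 was -1.46 in S8 (SE 0.061, adjusted p = 0.0001), which was called, -0.59 in T2 (SE 0.061, adjusted p = 0.00136) and -0.56 in 16-6 (SE 0.050, adjusted p = 0.000874), which were not. In 32 it was -0.01, with a 95% interval from -0.14 to 0.12. Between iPSC lines Mga was called lower in S8 than in 32 (log2 difference -1.45, adjusted p = 0.000145, where 11.8% of tested genes were called), and T2 and 16-6 did not differ beyond the spread (adjusted p = 0.67).

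**Figure D3:**
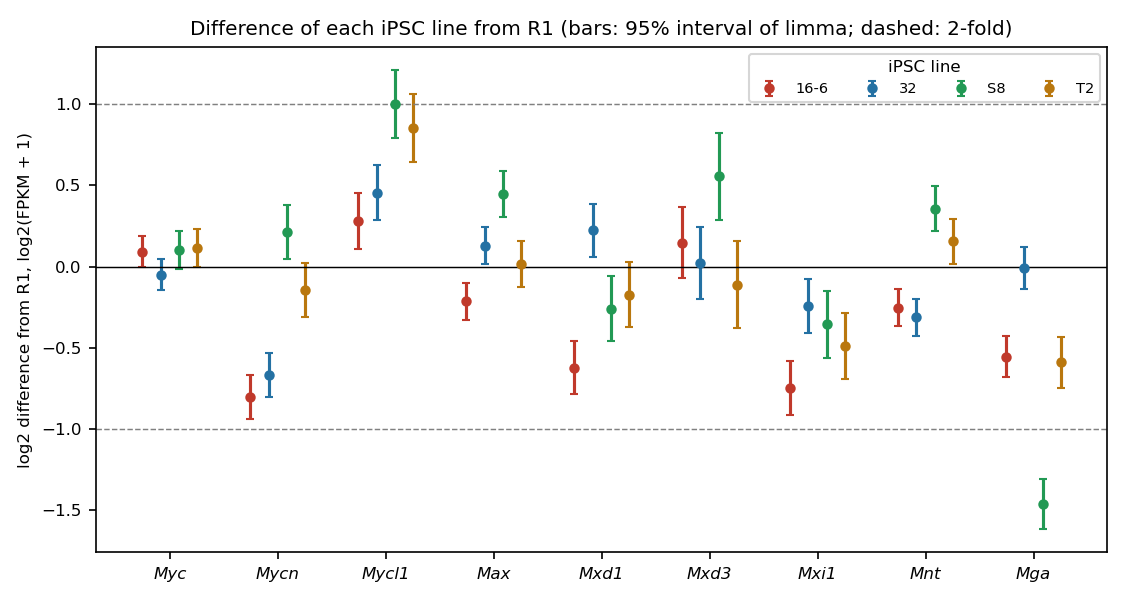
Log2 difference of each iPSC line from R1 on the log2(FPKM + 1) scale (y axis) for the 9 network genes (x axis), with 95% intervals of limma; dashed lines mark 2-fold. Only Mycl1 (1.00) and Mga (-1.46) in S8 reach a dashed line, and Myc lies near 0 in every line.

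The level of Mga in S8 has to be read beside a property of that library. In S8, long transcripts were lower in general: the median log2 difference from R1 was 0.22 for the 867 tested genes with a longest coding transcript under 1000 bases and -0.77 for the 543 genes of 8000 bases or more. The corresponding medians for the long genes were -0.05 in 16-6, -0.08 in 32 and -0.20 in T2. Among the 500 tested genes nearest to Mga in length, the median in S8 was -0.77, and Mga was a further 0.70 below it, at the percentile 11.6. After removal of the length and GC trend from each library, the log2 difference of Mga in S8 was -0.26 and was no longer called, and in T2 it was -0.23. In 16-6, where the medians did not follow length, it was -0.42, so that S8 was then no longer the line with the least Mga against R1. Matching on length alone kept S8 the lowest. There the difference of Mga from the median of genes of like length was -0.70 in S8, -0.51 in 16-6 and -0.41 in T2. The difference between S8 and 32 came to -0.33 with the correction, which ended that call as well. Why long transcripts were lower in the single library of S8 was not tested.

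Mycl1, of 3501 bases, went against that trend. The 500 genes of like length had a median of -0.06 in S8, and Mycl1 lay at the percentile 95.6 among them. In T2 it lay at the percentile 95, and the corrected differences were 0.86 in S8 and 0.79 in T2. Myc in S8 lay at the percentile 47.8 among genes of its length and Mycn at the percentile 58.6. In 16-6, Mycn was at the percentile 6, Mxi1 at 5.2, Mxd1 at 9.8 and Mga at 9.6 of the genes of like length.

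**Figure D4:**
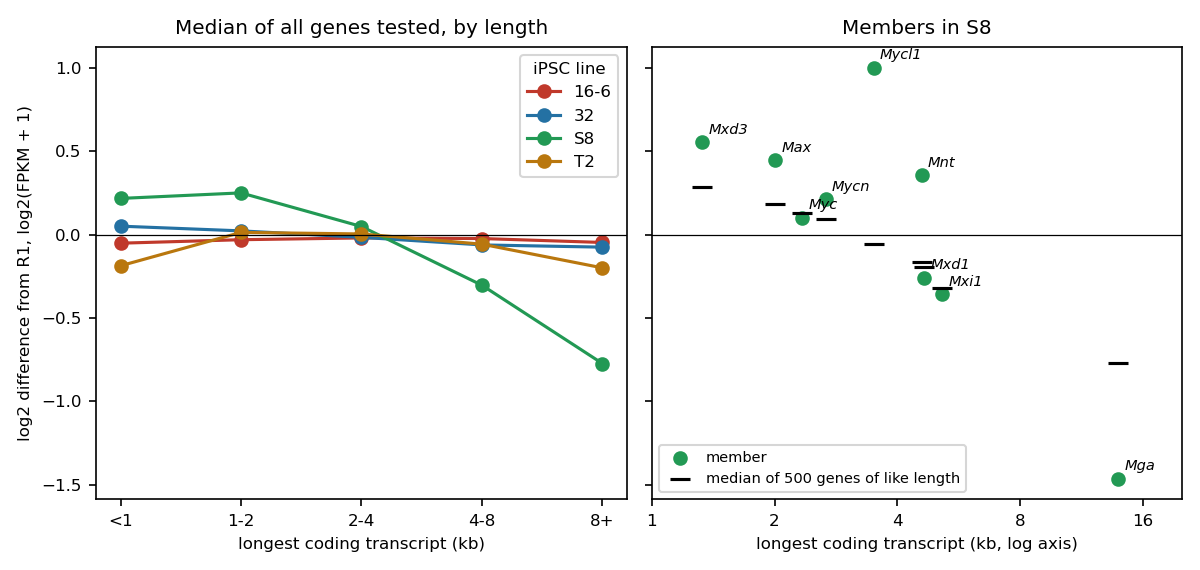
Left, median log2 difference from R1 (y axis) of all tested genes by length of the longest coding transcript (x axis, kb), with 1 line per iPSC line. Right, the 9 members in S8 (green points) against length (log axis) with the median of 500 tested genes of like length (black bars); Mga at -1.46 lies below a bar at -0.77 and Mycl1 at 1.00 above a bar at -0.06.

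Counted over the members, 0 of 9 were called against R1 in 16-6, where 7.11% of all tested genes were called. The counts were 0 of 9 in 32 (9.77% of all tested genes), 2 of 9 in S8 (16.7%) and 0 of 9 in T2 (10.5%). When the 4 iPSC lines were averaged and set against R1, 0 of 9 were called, where 6.41% of tested genes were. At the adjusted p alone, without the fold limit, 7 of 9 passed in 16-6 (55.6% of tested genes), 5 in 32 (61.5%), 8 in S8 (66.7%), 3 in T2 (57.9%) and 5 for the mean of the lines (65%). In 16-6, 6 of the 7 were lower and 1 higher than in R1, where 29.9% and 25.7% of all tested genes were, and all 10 pluripotency markers were lower there too. The part of that difference in the members' values was not tested. The median log2 difference of the 9 members was -0.25 in 16-6, -0.01 in 32, 0.21 in S8 and -0.11 in T2, where that of all tested genes was between -0.03 and -0.02. An F-test over the 5 lines with a range of at least 2-fold called 3 members, Mycn, Mycl1 and Mga, where it called 34.5% of tested genes. At its adjusted p alone all 9 passed, as did 88.4% of tested genes. The count was also 3 with quantile normalization, with Mxd1 in place of Mycn, and it came to 1 with median of ratios scaling (Mga), to 0 with the length and GC correction and to 0 without S8. Over all combinations of the 9 members with the 6 pairs of iPSC lines, 2 were called, where 9.62% of the combinations of all tested genes were. The 4 contrasts of an iPSC line with R1 share the R1 libraries. The 9 genes differed in small steps in most lines, and their counts of calls were near or below the background. The call of Mycl1 in S8 was also lost without the second R1 library, which left 1 member called there.

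The genes around the network were taken from lists that were chosen with earlier results of these data known. Of the 4 other genes of the extended network, Mxd4, the fourth Mxd gene, was the one that was called. It was at 11.9 and 13.1 FPKM in R1, 14.4 and 17.7 in 16-6, 2.24 and 2.82 in 32, 4.32 in S8 and 5.35 in T2. The log2 difference from R1 was -1.94 in 32 (SE 0.13, adjusted p = 0.000313), -1.34 in S8 (adjusted p = 0.00135) and -1.08 in T2 (adjusted p = 0.0039), and 0.33 in 16-6 (adjusted p = 0.0834). The order of the lines, 16-6, R1, T2, S8 and 32, was exactly that of the summed fibroblast markers, and their part in this result was not tested. In these bulk samples, fewer cells of a type and less RNA per cell cannot be told apart. None of the 9 members had that order of lines, but Max had nearly the reverse. The Spearman correlation of the line means with the summed fibroblast markers was -0.9 for Max and -0.6 for Mycl1 and Mxd1. It was between -0.4 (Mxi1) and 0.2 (Myc and Mga) for the other members. It rests on 5 lines and was not tested.

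Mlx, the Max-like partner of the glucose-responsive factors Mlxip and Mlxipl, was at 27.5 ± 0.67 FPKM in R1 (SD, n = 2) and highest in S8, at 36.9, with a log2 difference of 0.41 (adjusted p = 0.00278). Genes of like length had a median of 0.19 in S8, and Mlx lay at the percentile 62.6 among them. Mlxip, which encodes MondoA, was at 12.9 FPKM in R1 and 6.61 in S8 (log2 difference -0.87, adjusted p = 0.000915), or -0.41 after the length and GC correction of its 7303-base transcript. Mlxipl, which encodes ChREBP, was below 4 FPKM everywhere, with -0.55 in 16-6 (adjusted p = 0.00468) and -0.59 in 32 (adjusted p = 0.00318).

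Of the 10 other subunits of PRC1.6, the complex of Mga and Max, 1 was called in each of 16-6, S8 and T2 and 0 in 32, where 7.11%, 16.7%, 10.5% and 9.77% of all tested genes were called. Yaf2, a RING1-binding subunit, was higher in 16-6, at 20.3 and 22.8 FPKM against 9.91 and 9.74 in R1 (log2 difference 1.06, adjusted p = 0.000346), or 0.98 and short of 2-fold without the second library of 16-6. Cbx3, the heterochromatin protein of the complex, was at 228 and 236 FPKM in R1 and rose to 517 in S8 (1.16, adjusted p = 0.000265) and 468 in T2 (1.01, adjusted p = 0.000674), calls that fell short of 2-fold with quantile normalization in S8 (0.81) and median of ratios scaling in T2 (0.99). Pcgf6, the subunit that defines the complex, was at 41.9 FPKM in R1, 79.8 in S8 (0.91) and 70.9 in T2 (0.75), past the adjusted p and short of 2-fold. The list median was -0.13 in 16-6, 0.27 in 32, 0.30 in S8 and 0.11 in T2.

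Germ cell genes that Max, Mga and PRC1.6 are known to keep silent in ESCs were mostly lower than in R1 in 16-6 and divided in the other lines. At the adjusted p alone, of the 11 tested of 12, 1 was higher and 7 lower in 16-6, 3 and 6 in 32, 5 and 1 in S8, and 2 and 4 in T2. Among all tested genes 25.7% were higher and 29.9% lower in 16-6, 28.6% and 32.9% in 32, 32.1% and 34.6% in S8, and 27% and 30.9% in T2. With the fold limit, 0 were called higher and 5 lower in 16-6, 0 and 2 in 32, 1 and 1 in S8, and 0 and 1 in T2, where all tested genes had 3.58% higher and 3.53% lower in 16-6, 1.54% and 8.23% in 32, 6.93% and 9.74% in S8, and 3.95% and 6.54% in T2. The 5 lower in 16-6 came to 3 with median of ratios scaling and with the length and GC correction. Sycp3, a protein of the meiotic chromosome axis, was at 21.2 and 26.5 FPKM in R1 and fell in all 4 iPSC lines, to 6.74 and 4.83 in 16-6 (log2 difference -1.88, adjusted p = 0.00108), 9.75 and 11.6 in 32 (-1.09, adjusted p = 0.00511), 9.75 in S8 (-1.20, adjusted p = 0.00628) and 6.78 in T2 (-1.67, adjusted p = 0.00284). Smc1b, a meiotic cohesin subunit, was called lower in 16-6 (-1.38) and 32 (-1.06). In 32, quantile normalization brought Sycp3 to -0.99 and Smc1b to -0.67, which ended both calls. Slc25a31, the germ cell ADP/ATP carrier, was called higher in S8, at 2.55 FPKM against 0.777 and 0.731 in R1 (1.02, adjusted p = 0.0019), a call at the edge of 2-fold that was lost with median of ratios scaling (0.98). Slc25a31 reached the 1 FPKM needed for testing only in S8 and T2 (1.27). It was therefore tested only through lines where it was high, which limits what its call in S8 shows. The list median was -0.80 in 16-6, -0.58 in 32, 0.21 in S8 and -0.31 in T2, and with quantile normalization it was -0.69, -0.16, 0.44 and -0.16 in that order.

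Genes that Myc is known to activate, 32 of ribosome biogenesis, translation, polyamine and nucleotide synthesis and the cell cycle, were higher than R1 more often than lower in all 4 lines. The excess was small in 16-6, where 9 were higher and 6 lower at the adjusted p alone (25.7% and 29.9% of all tested genes), or 12 and 4 with median of ratios scaling and 14 and 4 with the length and GC correction. The counts were 27 and 2 in 32 (28.6% and 32.9%), 24 and 4 in S8 (32.1% and 34.6%) and 19 and 3 in T2 (27% and 30.9%). The list median was 0.06 in 16-6, 0.41 in 32, 0.61 in S8 and 0.26 in T2. In 16-6 it was 0.12 with median of ratios scaling and 0.11 with the length and GC correction. With quantile normalization the median was 0.17 and 16 were higher in 32, and it was 0.30 with 18 higher in S8. With the fold limit, 7 were called higher in S8, 1 in 16-6 and 0 in 32 and T2, where 6.93%, 3.58%, 1.54% and 3.95% of tested genes were. Rrp9, which works in processing of ribosomal RNA, was at 71.0 and 76.7 FPKM in R1 and 247 in S8 (log2 difference 1.73, adjusted p = 9.11e-05). Srm, the spermidine synthase, was at 222 and 233 FPKM in R1 and 740.1 in S8 (1.70, adjusted p = 0.000241). After the length and GC correction, 2 targets were called higher in S8. Ccnd2, the cyclin D2 gene, went another way, with 1.22 in 16-6, -1.77 in 32 and -1.01 in S8, all called (-0.57 in S8 after the length and GC correction, which ends that call), and like Mxd4 it had the order of lines of the fibroblast markers. In 32, where the list median was 0.41, Mycn was at -0.67 and Myc at -0.05 against R1. Line 32 also had the lowest sum of fibroblast markers, with a mean of 62.6 FPKM against 861.5 in R1. Over the 5 lines, the Spearman correlation with that sum was -0.6 for Rrp9 and Srm and 1 for Ccnd2. The part of the fibroblast transcripts in the target values was not tested.

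Of 7 genes that Myc is known to repress, the most consistent were Ndrg1 and Ndrg2, members of a family of differentiation-linked genes. Ndrg1 was at 34.2 and 32.6 FPKM in R1 and fell to between 5.84 and 9.50 in the 6 iPSC libraries, with log2 differences of -1.78 in 16-6, -2.31 in 32, -1.81 in S8 and -1.92 in T2. Ndrg2 was at 37.1 in both R1 libraries and between 8.72 and 15.0 in the iPSC libraries. Its log2 difference was -1.92 in 16-6, -1.74 in S8 and -1.97 in T2, and it fell least in 32, to a mean of 14.6 FPKM. Cdkn2b, which encodes the cell cycle inhibitor p15, was called higher in 16-6 (1.09, adjusted p = 0.00975) and lower in 32 (-1.30, adjusted p = 0.00469), the lines with the most and the least fibroblast transcripts. The first of these calls was lost without either R1 library (adjusted p = 0.0524 and 0.0514) and the second with quantile normalization (-0.94). In all, 1 was called higher and 2 lower in 16-6, 0 and 4 in 32, and 0 and 3 in both S8 and T2, where all tested genes had 3.58% higher and 3.53% lower in 16-6, 1.54% and 8.23% in 32, 6.93% and 9.74% in S8, and 3.95% and 6.54% in T2. The list median was -0.29, -1.13, -0.54 and -0.55 in that order. It was -0.30 in S8 with quantile normalization and -0.16 in 16-6 with the length and GC correction.

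Factors that act on Myc protein or with it did not all differ from R1 in the same direction. Of 7 genes of Myc turnover, Usp28, a deubiquitinase that stabilises Myc, was at 97.2 and 102.1 FPKM in R1, 34.7 and 36.2 in 16-6 (log2 difference -1.47, adjusted p = 9.32e-05), 47.5 and 49.0 in 32 (-1.03, adjusted p = 9.05e-05), 63.5 in S8 and 53.5 in T2. The call in 32 was at the edge of 2-fold. It was lost without the second R1 library (-0.99) and with the length and GC correction (-0.98). Huwe1, a very large ubiquitin ligase, was at 52.4 FPKM in S8 against 110.3 and 108.5 in R1 (-1.05), but its transcript has 14579 bases and the difference was 0.06 after the length and GC correction. Fbxw7, the ligase that recognises phosphorylated Myc, was at 18.2 FPKM in R1 and between 15.7 and 22.4 in the iPSC lines. Of the 7, 0 were called higher and 1 lower in 16-6, 0 and 1 in 32, 1 and 1 in S8, and 1 and 0 in T2. Among all tested genes, 7.11% were called in 16-6, 9.77% in 32, 16.7% in S8 and 10.5% in T2.

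Among 8 Myc cofactors of the TRRAP, TIP60 and RUVBL kind, limma called 0 in each of the 4 lines. At the adjusted p alone, 3 were higher and 2 lower in 16-6, 5 and 0 in 32, 5 and 2 in S8 and 3 and 0 in T2, of 8 genes each, where the shares of all tested genes were 25.7% and 29.9% in 16-6, 28.6% and 32.9% in 32, 32.1% and 34.6% in S8 and 27% and 30.9% in T2. Ruvbl2, an ATPase of these complexes and the most abundant of the list, was at 211.5 FPKM in R1, 202.7 in 16-6, 242.3 in 32, 343.3 in S8 and 225.7 in T2. Among the 8 Sin3 and histone deacetylase corepressors used by Mxd and Mnt, limma also called 0 in each line. At the adjusted p alone, 1 was higher and 5 lower in 16-6, 0 and 1 in 32, 2 and 3 in S8 and 0 and 3 in T2, to be read against the same shares, and Hdac1, the most abundant, was at 180.7 FPKM in R1, 145.1 in 16-6 and 231.2 in S8. The list median of cofactors was -0.06 in 16-6, 0.23 in 32, 0.52 in S8 and 0.12 in T2. That of corepressors was -0.24, 0.02, 0.04 and -0.12 in that order. Medians of all tested genes lay between -0.03 and -0.02. The cofactor median was 0.09 in 32 with quantile normalization and 0.26 in S8 with the length and GC correction.

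**Figure D5:**
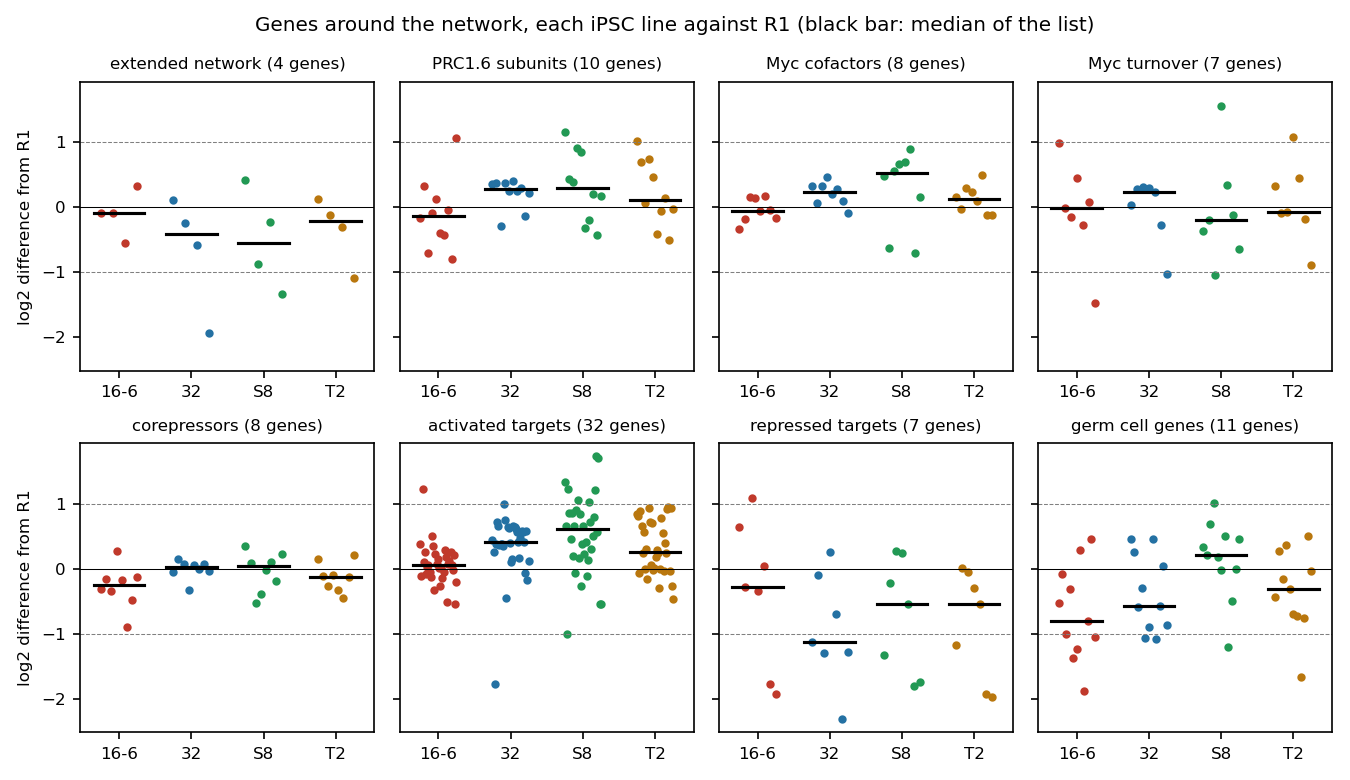
Log2 difference from R1 (y axis) of each tested gene of 8 lists around the network in each iPSC line (x axis); points are genes, black bars list medians and dashed lines 2-fold. Activated targets have medians of 0.06, 0.41, 0.61 and 0.26 in 16-6, 32, S8 and T2, and the germ cell genes have their lowest median, -0.80, in 16-6.

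The genes whose pattern over the 8 libraries was most like that of Mga were Ncoa2, Taf1, Rest, Klf12 and Pikfyve (Pearson r from 0.993 to 0.997 on the log2 scale, among 3498 genes at 1 FPKM or more in every library with a 2-fold range of line means). Rest, the repressor of neuronal genes, was at 73.3 and 76.1 FPKM in R1, 53.4 and 52.8 in 16-6 and 74.97 and 78.6 in 32. It was at 30.3 in S8 and 55.1 in T2, with S8 lowest, as for Mga before the correction for length and GC content. This likeness was computed on values without that correction. For Myc the nearest were Mmgt2, Sox4, Foxp1, B3gnt1 and Klf13 (r from 0.968 to 0.972), whose own ranges of at least 2-fold were far wider than that of Myc. Sox4 was at 15.7 and 17.7 FPKM in R1 and 34.4 in T2. With 8 libraries of 5 lines, such likeness rests on few independent points.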

How the data were processed

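The authors placed paired reads of oligo(dT)-enriched RNA on mm9 and its UCSC genes (TopHat 2.0.4), used uniquely placed reads and derived the deposited FPKM, with confidence limits, by Cufflinks (2.0.0 in the submitters' processing notes). The deposited FPKM sum to far more than usual, so all were divided by 12725.7, which sets the median library total to 1000000. Libraries were grouped by the labelled cell line. Genes reaching FPKM 1 in any library were tested by limma 3.58.1 on log2(FPKM + 1) (trend, 3 residual degrees of freedom) in R 4.3.3. The fit was tested on simulated data. Implied fragments are the square of 2 × FPKM / (upper limit − FPKM). They limit only counting error, and p-values measure the spread between 2 libraries a line. Replicate numbers did not pair the libraries (correlations of replicate differences from -0.0969 to 0.0282). No 2 libraries were identical. Transcript lengths came from GENCODE vM1, matched for 94.7% of tested genes. The alternatives were pseudocount, filters, normalization, no fold limit, no trend, left-out replicates and a replicate block, and, after the data were seen, a length and GC correction and removal of S8. Named list genes are up to 2 called genes with the largest difference in each direction per line, else the most abundant, and 1 such gene is not reported here; likeness is the highest Pearson r. Other list genes named (Pcgf6, Fbxw7, Cdk4, Cdkn1a) were chosen after their values were seen. Members and lists were chosen with earlier results of these data known.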

Additional observations from a re-analysis of the deposited data

Results flagged for a closer look

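Among the 9 members and the 4 other genes of the extended network, differences between iPSC lines passed both the adjusted p and the 2-fold limit for 3 genes. The difference of Mycn from R1 was higher in S8 than in 16-6 by 1.02 on the log2 scale, a call lost with quantile normalization (0.74), median of ratios scaling (0.90) and the length and GC correction (0.74). That of Mga was lower in S8 than in 32, at -1.45, in a library where long transcripts were lower in general, and it came to -0.33 with the length and GC correction. Mxd4 was lower than in 16-6 by -2.27 in 32, by -1.67 in S8 and by -1.42 in T2, with the fibroblast markers in the same order. Of the list genes, Ccnd2 (-2.99), Cdkn1a (-1.77) and Cdkn2b (-2.39) were also called lower in 32 than in 16-6. S8 and T2 have 1 library each. No line had enough libraries for a test of single libraries that stand apart.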

How the results depend on the processing

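Without the fold limit, members called against R1 came to 7 in 16-6, 5 in 32, 8 in S8, 3 in T2 and 5 for the mean of the lines, to 9 over the 5 lines and to 37 over the 6 pairs of iPSC lines (from 0, 0, 2, 0, 0, 3 and 2), and calls over the 4 lines came to 8 in the extended network, 29 in PRC1.6, 20 in cofactors, 21 in turnover, 15 in corepressors, 94 in activated targets, 22 in repressed targets and 29 in germ cell genes (from 3, 3, 0, 5, 0, 10, 13 and 10). With FPKM of at least 1 in every library, germ cell calls fell to 6, since fewer genes were tested. With median of ratios scaling, 1 member was called in S8 and 1 over the 5 lines. Quantile normalization turned small differences of Max (32 -0.0030, T2 -0.023, mean -0.00053), Mxd3 (32 -0.030), Mycn (S8 -0.13), Mxd1 (S8 0.0061), Mnt (mean 0.0069) and Mlxipl (S8 0.036), and median of ratios scaling those of Mxd3 in 32 (-0.00094) and Max in T2 (-0.0086). The length and GC correction left 0 members called in S8, 0 over the 5 lines, 0 over the pairs and 5 calls in activated targets. It turned Myc in 32 (0.023) and S8 (-0.14), Mga in 32 (0.072), and in S8 Mycn (-0.013), Mxi1 (0.078) and Huwe1 (0.063). Without the S8 library, 0 members were called over the lines and 0 over the pairs, with 3 calls in turnover and 2 in activated targets, and Max was at -0.023 for the mean of the other lines. Leaving out a replicate gave 1 to 2 members called in S8, with the 1 when the second R1 library was left out, and differences in 32 from -0.064 to 0.11 for Mxd3 and -0.029 to 0.011 for Mga, and in T2 from -0.024 to 0.057 for Max. Apart from these causes by construction, the cause was not tested. A fit with the replicate number as a block used only the 6 libraries of R1, 16-6 and 32. It called 0 members in 16-6 and 0 in 32, as without the block. All genes called came to 971 and 1342, against 975 and 1343 in the same 6 libraries without the block. Precision is limited by 3 residual degrees of freedom and by the single libraries of S8 and T2.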
